A study of Homo sapiens with 12 samples.

Results

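Kinesins are motor proteins that walk along microtubules or take them apart. Here every gene whose symbol is KIF followed by a number, with an optional letter, was followed in SKMEL2 cells, an established human melanoma line. The array named 39 such genes, each by 1 probe set, out of 14582 named genes. Another 5 symbols of this form in RefSeq, all pseudogenes, are not analysed here. Cells were treated for 24 hours in 4 arms of 3 arrays each, 12 arrays in all. The control arm received the solvent DMSO. The DT arm received 100 nM dabrafenib, an inhibitor of RAF kinases, with 10 nM trametinib, an inhibitor of MEK kinases. The E arm received 1 µM entinostat, an inhibitor of histone deacetylases, and the DTE arm received all 3 agents. All arms are 1 cell line, so they model 1 tumour. The sample titles call the arrays of an arm biological replicates and the design text calls them technical triplicates, so the p-values measure the spread between these arrays, which may be technical.

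Motors of the mitotic spindle separate the spindle poles, move chromosomes and build the central spindle on which a cell divides, and their genes are typically transcribed in the later part of the cell cycle. Repression of such genes outside that window is known to run through a short promoter stretch, the cell cycle genes homology region, often with CCAAT boxes beside it that bind the factor NF-Y. Another branch of the family carries cargo: the conventional kinesin heavy chains KIF5A, KIF5B and KIF5C move vesicles and organelles, KIF5B in most cells and the others chiefly in neurons. A further branch serves cilia, either as the motor of transport along them or at their base and tip. The 39 genes were sorted by such roles into 14 spindle kinesins, 13 axonal and cargo kinesins, 10 ciliary kinesins and 2 others, KIF12 and KIF25. KIF4B is a near-identical copy of KIF4A, so its probes may bind transcripts of both and its values are uncertain.

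Deposited intensities of the arms were not on a common level, which touches every value below. The geometric mean intensity of the brighter genes was 112 to 139 on DMSO arrays, 94.8 to 108 on DT arrays, 124 to 161 on E arrays and 61.2 to 68.5 on DTE arrays. The median difference over all genes, on the log2 scale, was -0.12 for DT against DMSO, 0.14 for E against DMSO and -0.54 for DTE against DMSO. Each difference is therefore given on the log2 scale with its standard error from the limma fit of deposited values, followed by the value after quantile normalization, which puts all arrays on 1 distribution. Less RNA per cell and fewer cells cannot be told apart in these samples, and the scaling that fits the cells was not tested. Of 10 melanocyte markers 9 were measured, all of them above background in every arm. Their sums were 5153 to 5888 on DMSO arrays and 4302 to 4846 on DT arrays. On E arrays they were 4333 to 6201 and on DTE arrays 2468 to 2677. Of 15 markers of epithelial, blood, endothelial and stromal cells 6 were measured. EPCAM, KRT14, CD14 and VWF were above background in every arm too, and KRT5 and DCN in none. Passing background thus does not by itself identify the cells. The 6 summed to 107 to 112, 136 to 154, 161 to 183 and 92.5 to 101 in the same order of arms. The part of these shifts in the kinesin results was not tested.

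Of the 39 kinesin genes, 36 were above background in every arm. KIF25, a kinesin with little known function, was above it in none, KIF5A only in E and DTE, and KIF26B in 2 arms. Background here means the level under which 95% of the dimmest 25% of genes lie, 11.1 to 16.2 on single arrays. Most genes pass such a level by its definition, and their share was not counted. Passing it is therefore weak evidence of expression for a dim gene. By arm means, 30 of the 39 were lowest in DTE and 30 were highest in E. This order was not counted over all genes. Of all genes 60.8% were called lower in DTE than in DMSO and 78.5% lower than in E, so the order cannot be read as a trait of kinesins. After quantile normalization 17 of the 39 kinesins were lowest in DT, 10 in the vehicle, 8 with all 3 agents and 4 in E. The place of DTE in the order thus depends on the scale. For the 14 spindle kinesins the lowest arm was DTE for 11 and DT for 3 in deposited values, and DT for 10 and DTE for 4 after quantile normalization. None of the 14 was lowest in DMSO or E on either scale.

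**Figure D1:**
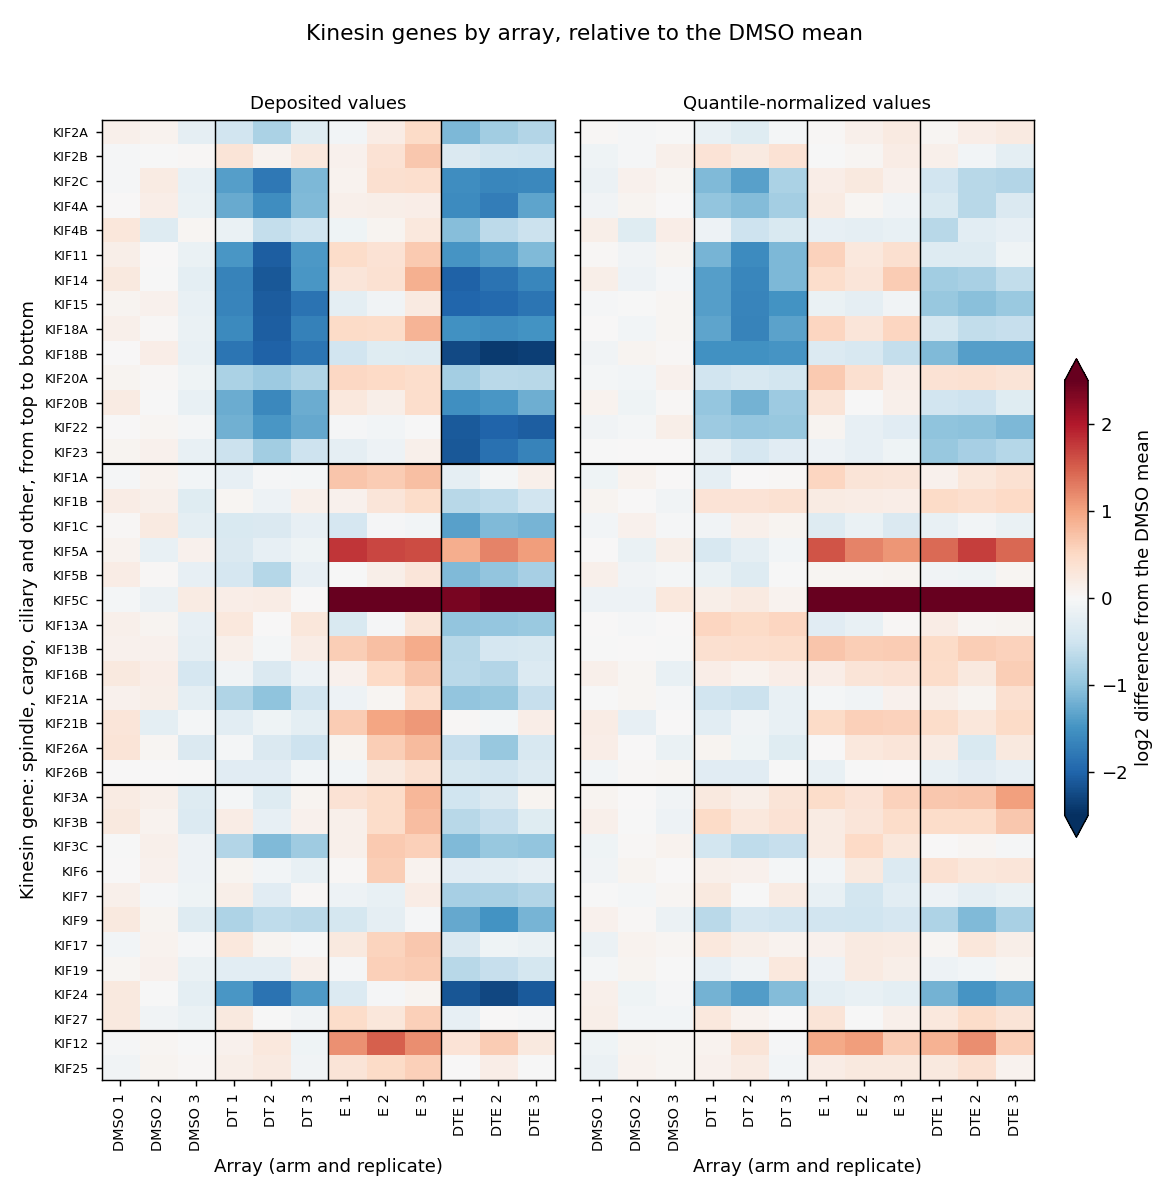
Log2 difference of each kinesin gene from its DMSO mean on each of the 12 arrays, in deposited values and after quantile normalization. Spindle kinesins fill the top block, where most DT and DTE columns are low on both scales. Exceptions are KIF20A and KIF2A in DTE after quantile normalization, and KIF2B in DT on both scales. KIF5C is the row with the strongest rise in the E and DTE columns.

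RefSeq promoters of 300 bases (250 before and 50 after the start site, GRCh38.p14) were matched for 33 of the 39 genes. KIF5A, KIF13B, KIF19, KIF21B, KIF26B and KIF27 are named only. The letters TTTGAA or TTCGAA of the cell cycle genes homology region, on either strand, stood in the promoters of 10 of the 14 spindle kinesins (71.4%), in 12 of the 33 matched kinesins (36.4%) and in 16.6% of the 27305 promoters of the table. CCAAT, on either strand, stood in 10 of the 14 (71.4%) against 35.7% of all promoters, and both sets of letters in 9 of the 14 (64.3%) against 6.58%. Outside the spindle class the homology region letters occurred only in KIF5B and in KIF24, a microtubule depolymerase of the mother centriole that holds back cilium assembly. The distance from the end of CCAAT to the start of the homology region letters was 18 bases in KIF14, 19 in KIF4A and KIF4B, 20 in KIF11, 29 in KIF18B, 30 in KIF18A, 34 in KIF22, 43 in KIF24, 4 in KIF23 and 117 in KIF20B. KIF4A and KIF4B, near-identical copies with the same distance of 19 bases, are both in these counts. Their promoters may therefore not be independent of each other. A match of letters is a description of the window and not evidence of a bound site.

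Promoter stretches of 8 kinesins (110 bases before to 20 after the start, 5′ to 3′ on the gene's strand, GRCh38.p14, from RefSeq) are shown because 7 of them hold both sets of letters and the remaining one, KIF20A, does not. Capitals mark CCAAT or its reverse ATTGG, and TTTGAA or TTCGAA or the reverse TTCAAA. The stretches are KIF18B at chr17:44947754-44947883 on the minus strand, KIF18A at chr11:28108137-28108266 on the minus strand, KIF14 at chr1:200620732-200620861 on the minus strand, KIF11 at chr10:92593020-92593149 on the plus strand, KIF22 at chr16:29790641-29790770 on the plus strand, KIF23 at chr15:69414239-69414368 on the plus strand, KIF24 at chr9:34329249-34329378 on the minus strand and KIF20A at chr5:138179002-138179131 on the plus strand.
KIF18B: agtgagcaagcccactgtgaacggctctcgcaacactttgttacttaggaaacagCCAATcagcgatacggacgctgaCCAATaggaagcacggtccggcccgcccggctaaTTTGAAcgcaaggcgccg
KIF18A: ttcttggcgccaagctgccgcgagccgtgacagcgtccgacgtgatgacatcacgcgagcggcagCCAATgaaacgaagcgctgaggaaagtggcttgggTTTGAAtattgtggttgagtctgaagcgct
KIF14: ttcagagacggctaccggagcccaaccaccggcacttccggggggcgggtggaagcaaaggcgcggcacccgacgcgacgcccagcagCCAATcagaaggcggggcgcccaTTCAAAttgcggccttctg
KIF11: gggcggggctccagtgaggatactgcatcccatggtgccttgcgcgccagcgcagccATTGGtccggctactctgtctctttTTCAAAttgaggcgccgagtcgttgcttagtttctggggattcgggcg
KIF22: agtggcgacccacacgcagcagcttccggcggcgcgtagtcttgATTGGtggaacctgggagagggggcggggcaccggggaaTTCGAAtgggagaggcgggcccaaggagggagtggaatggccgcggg
KIF23: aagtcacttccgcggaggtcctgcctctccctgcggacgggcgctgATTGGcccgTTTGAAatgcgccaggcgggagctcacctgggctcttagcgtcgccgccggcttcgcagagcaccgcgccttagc
KIF24: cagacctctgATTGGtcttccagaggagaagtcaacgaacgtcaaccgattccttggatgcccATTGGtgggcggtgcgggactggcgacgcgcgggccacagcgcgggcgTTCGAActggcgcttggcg
KIF20A: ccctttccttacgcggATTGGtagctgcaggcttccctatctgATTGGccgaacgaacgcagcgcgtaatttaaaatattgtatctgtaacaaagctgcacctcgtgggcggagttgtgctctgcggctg
In KIF18B, KIF18A, KIF14, KIF11, KIF22 and KIF24 the homology region letters lie close to the start site, downstream of a CCAAT box. In KIF23 the homology region letters lie further upstream and almost touch a CCAAT box. KIF20A has CCAAT boxes in reverse but no homology region letters in the 300 bases.

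Other letters were searched in the same windows on both strands. The E-box CACGTG was in 0 of 33 kinesin promoters against 7.43% of all, the AP-1 letters TGACTCA or TGAGTCA in 0 of 33 against 4.92%, and TTCAGCACC, a part of the REST element, in 0 of 33 against 0.403%. E2F letters (TTTGGCGC, TTTCCCGC, TTTCGCGC or TTTGCCGC) were in 2 of 33 (6.06%) against 3.33%. The SP1 letters GGGCGG were in 29 of 33 (87.9%) against 44.6%. None of the motifs searched contains another.

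Spindle motors were lower in the arm with dabrafenib plus trametinib. In DT against DMSO 12 of the 14 spindle kinesins fell, 9 of them at least 2-fold, against 3 of 10 ciliary and 2 of 13 cargo kinesins. Over all 39 genes 17 were called lower (43.6%), where 23.1% of all genes were, and 0 were called higher in limma (0 also at an unadjusted p under 0.05), where 4.72% of all genes were. After quantile normalization 15 were lower and 5 higher, against 15% and 14.6% of all genes, and 11 spindle kinesins were lower. With each array centred on its median value 17 were lower and 1, KIF2B, higher, against 22.7% and 9.33% of all genes. The median difference of the spindle kinesins was -1.34 (quantile -0.99), that of all 39 was -0.31 (quantile -0.18), and that of all genes was -0.12. The 3 DT arrays lay below the 3 DMSO arrays for 17 of the 39 genes, where 29.7% of all genes did so, and above them for 1, where 8.08% did.

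The motors that build a bipolar spindle were among the most strongly lowered. KIF11, which slides antiparallel microtubules to push the poles apart and is the target of antimitotic drugs, measured 190.2, 171 and 153 on the DMSO arrays and 62.8, 41.1 and 62.9 on the DT arrays. It fell 3.13-fold, with every DT array far below every DMSO array (-1.65 ± 0.16, adjusted p = 4.9e-08, quantile -1.28). KIF15, a motor that can keep a spindle bipolar beside KIF11, measured 137, 140.4 and 115 in DMSO and 41.8, 30.8 and 36.3 in DT. It fell 3.63-fold, again without overlap (-1.86 ± 0.15, adjusted p = 2.6e-09, quantile -1.50).

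Motors that act on microtubule ends and chromosomes fell as well, KIF18A and KIF18B the furthest among them. KIF18B, which works at the plus ends of astral microtubules, measured 239, 265 and 208 in DMSO and 66.8, 58.2 and 66.9 in DT. Its fall of 3.70-fold was the greatest of the 39 genes in this comparison in deposited values (-1.89 ± 0.13, adjusted p = 4.7e-10, quantile -1.50). KIF18A, which damps the movement of chromosomes at the spindle equator, measured 127, 119 and 104 in DMSO and 38.7, 27.8 and 36.3 in DT (-1.78 ± 0.15, adjusted p = 4.2e-09, quantile -1.44). For both genes all DT arrays lay far below the lowest DMSO array. KIF2C, a depolymerase that corrects faulty attachments of microtubules to kinetochores, measured 109.5, 128 and 98.6 in DMSO and 42.9, 32.1 and 51.2 in DT (-1.43 ± 0.16, adjusted p = 2.7e-07, quantile -1.08). KIF22, a chromokinesin that pushes chromosome arms towards the equator, measured 169, 174 and 162 in DMSO and 72.9, 61.4 and 69.1 in DT (-1.31 ± 0.13, adjusted p = 3.3e-08, quantile -0.94). The DMSO arrays of KIF22 lay within a narrow band, and the DT arrays were all below it.

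Motors of the central spindle and of cytokinesis fell by unequal amounts. KIF14, which acts at the midbody in the last step of division, measured 268, 224 and 191 in DMSO and 70.6, 51.7 and 82.2 in DT (-1.75 ± 0.18, adjusted p = 9.3e-08, quantile -1.38). KIF20A, which brings the chromosomal passenger complex to the central spindle, measured 196, 192 and 175 in DMSO and 108, 99.7 and 111 in DT (-0.82 ± 0.13, adjusted p = 2.7e-05, quantile -0.45). KIF23, the motor subunit of the centralspindlin complex, measured 548, 566 and 463 in DMSO and 361, 285 and 364 in DT (-0.65 ± 0.15, adjusted p = 0.0022, quantile -0.31). No array of DT reached the DMSO range for any of these genes. KIF20A and KIF23 thus fell less than KIF14 in the same arrays. Within each array the log2 level of KIF18B minus that of KIF23 went from -1.15 ± 0.05 (SD, n = 3) in DMSO to -2.39 ± 0.08 in DT, a description of a pair chosen after its values were seen.

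The other spindle kinesins ranged widely. KIF4A, a chromokinesin that limits the length of the central spindle, fell by 1.30 on the log2 scale (quantile -0.97), and KIF20B, a motor of late cytokinesis, fell by 1.37 (quantile -1.02). KIF2A, a depolymerase at the spindle poles that is also used outside mitosis, had a smaller fall of -0.52 ± 0.16 (adjusted p = 0.018), which was not called after quantile normalization (-0.18) and was lost without DMSO array 1, DMSO array 2 or DT array 2. KIF4B was at -0.42 ± 0.17 (adjusted p = 0.076, quantile -0.33). KIF2B, a kinetochore depolymerase, was at 0.23 ± 0.14 (adjusted p = 0.28) with a 95% interval from -0.07 to 0.52, and was called higher after quantile normalization (0.31).

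**Figure D2:**
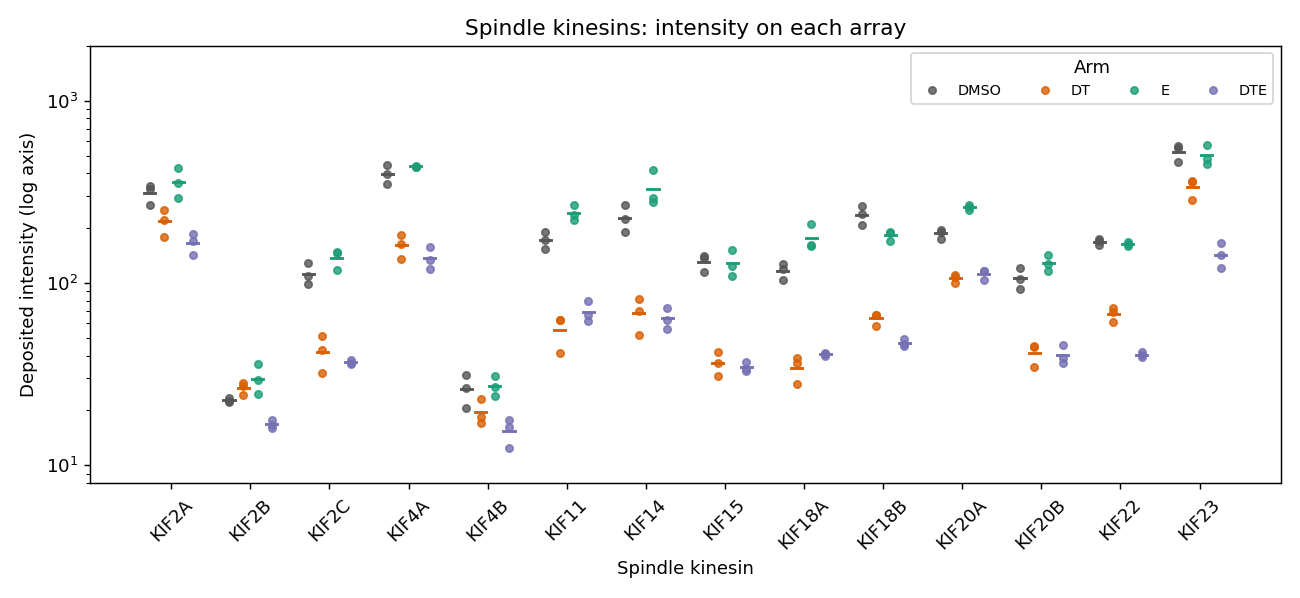
Deposited intensity of the 14 spindle kinesins on each array (log axis), with 1 point per array and a bar at the arm mean. For KIF11, KIF14, KIF15 and KIF18A the DT and DTE arrays form a low group and the DMSO and E arrays a high one.

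Set beside the promoter letters, 9 of the 10 spindle kinesins with the homology region letters fell in DT, with differences from -1.89 to -0.42 and a median of -1.51. Of the 4 spindle kinesins without them (KIF2A, KIF2B, KIF2C and KIF20A) 3 fell, with differences from -1.43 to 0.23 and a median of -0.67. Outside the spindle class KIF24 and KIF5B hold the letters, and both were called lower. The call of KIF5B was not kept after quantile normalization and was lost in 4 of 12 fits that left out an array. Of the 17 without the letters 3 were called lower, where 23.1% of all genes were. KIF2C, without the letters in the window, fell more than KIF23, which holds them. A link between the letters and the size of a fall was not tested.

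Outside the spindle class 2 of 13 cargo (15.4%), 3 of 10 ciliary (30%) and 0 of 2 other kinesins were called lower. These shares lie around the 23.1% of all genes. KIF24, whose promoter is shown above, measured 145, 122 and 104 in DMSO and 44.7, 34.2 and 45.6 in DT. Its fall of 2.97-fold was as large as that of many spindle motors (-1.57 ± 0.16, adjusted p = 4.5e-08, quantile -1.22). KIF3C, a partner subunit of the heterotrimeric ciliary and axonal motor, fell by 0.90 on the log2 scale (quantile -0.55), and KIF9, a motor of motile cilia and sperm tails, by 0.70 (quantile -0.53). KIF21A, which restrains microtubule growth at the cell cortex, fell by 0.74 (quantile -0.40). KIF3A, the core subunit of the heterotrimeric ciliary motor, measured 192, 181 and 134 in DMSO and 162, 134 and 176 in DT, overlapping throughout (-0.10, quantile 0.24).

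The conventional kinesin heavy chains gave little in this comparison. KIF5B measured 1258, 1120.4 and 954 in DMSO and 826, 674 and 958 in DT, so the arms overlapped by 1 array. It was called lower (-0.44 ± 0.15, adjusted p = 0.032), but not after quantile normalization (-0.17), nor without DMSO array 1, DMSO array 2, DT array 1 or DT array 2. KIF5C measured 15.2, 14.1 and 17.9 in DMSO, just above background, and 17.6, 17.8 and 15.8 in DT. Its difference of 0.12 ± 0.16 had a 95% interval from -0.20 to 0.45 (quantile 0.15). KIF5A measured 12.1, 10.0 and 12.3 in DMSO and 8.84, 9.91 and 10.6 in DT, not above background in either arm. KIF1A, a carrier of synaptic vesicle precursors, measured 15.6, 16.8 and 15.1 in DMSO and 13.7, 15.6 and 15.3 in DT, a difference that was not called (-0.09). After quantile normalization KIF1B (0.36), KIF3B (0.36), KIF13A (0.51) and KIF13B (0.42) were called higher with KIF2B, and none of them was called in deposited values.

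**Figure D3:**
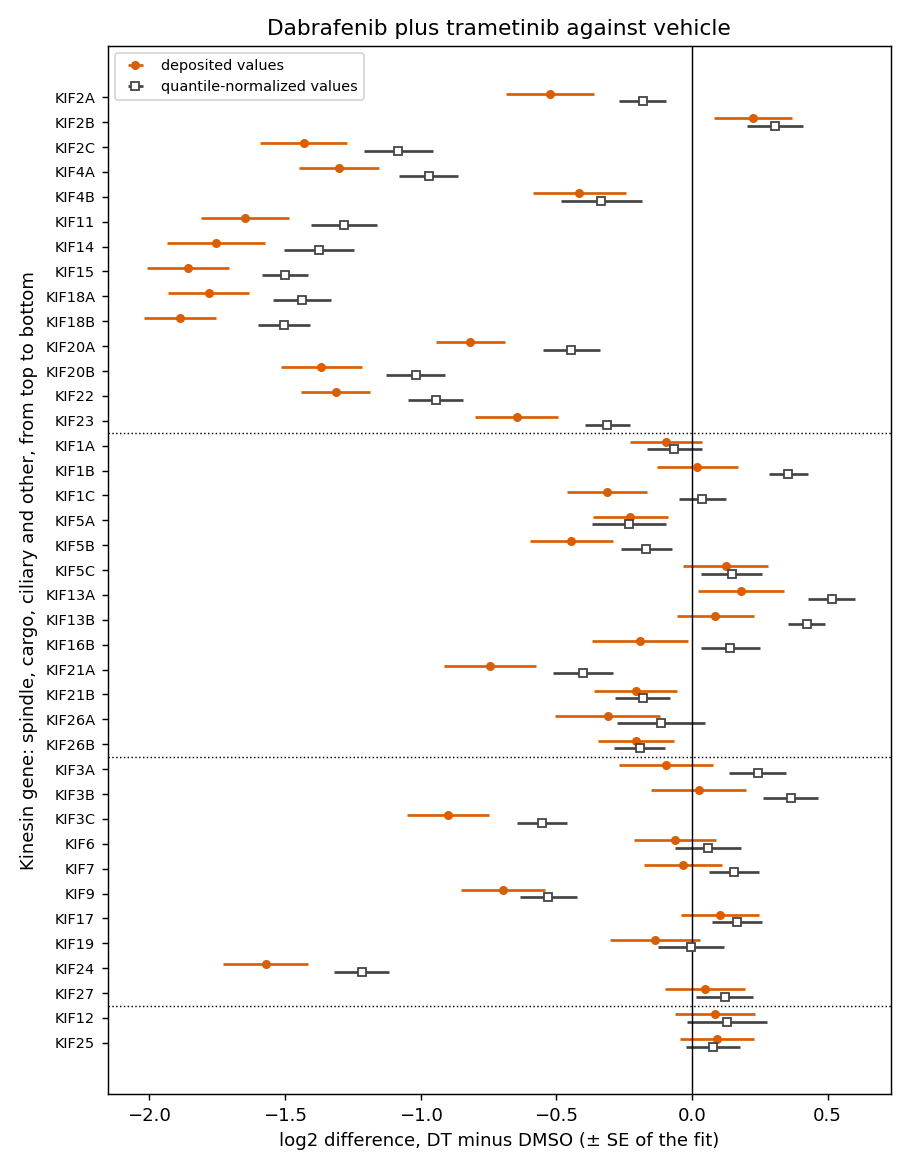
Log2 difference between DT and DMSO (± SE of the fit) for each of the 39 kinesin genes, by class, in deposited values (filled) and after quantile normalization (open). Spindle kinesins reach -1.89 on the left, KIF24 stands at -1.57 among the ciliary genes, and most cargo kinesins lie near 0.

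The partners of the spindle motors moved with them. Of 23 measured genes of a list of mitotic kinases, kinetochore proteins and regulators, 22 fell in DT and 0 rose (0 also at an unadjusted p under 0.05), with a median of -1.27, and the same counts held after quantile normalization (median -0.89). CDK1, the kinase that drives entry into mitosis, was at -1.95 ± 0.15 (quantile -1.61), MAD2L1, a spindle checkpoint protein, at -1.98 ± 0.14 (quantile -1.61) and AURKB, the kinase of the passenger complex, at -1.86 ± 0.13 (quantile -1.52). Among 10 measured kinesin family genes that the symbol rule leaves out, such as light chains and minus-end motors, 3 fell (30%), near the 23.1% of all genes. They were KIFC1, a minus-end motor of the spindle (-1.54 ± 0.15, quantile -1.18), KIFC3, a minus-end motor of cell junctions (-0.89 ± 0.16, quantile -0.68), and KLC2, a light chain that couples cargo to the conventional motor (-0.73 ± 0.17, quantile -0.39).

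Entinostat alone raised a neuronal member of the family by far the most. KIF5C rose 10.8-fold and KIF5A at least 2.87-fold, with smaller rises in other cargo kinesins and in some spindle motors. In E against DMSO 15 of the 39 genes were called higher (38.5%), against 20.8% of all genes, and 1 was called lower, against 4.81%. After quantile normalization 13 were higher and 4 lower, against 15.3% and 16.2% of all genes, and with each array centred on its median 6 were higher and 9 lower, against 11.3% and 26.9%. The median difference of the 39 was 0.38 (quantile 0.15), against 0.14 for all genes. By class 5 of 13 cargo, 4 of 10 ciliary, 4 of 14 spindle kinesins and both others were called higher, and the 5 cargo kinesins were called after quantile normalization too. Leaving out E array 3 cut the 15 to 8, and leaving out E array 1 raised them to 20. The arrays of E lay above those of DMSO for 16 of the 39 genes and below for 1, where 27% and 5.86% of all genes did so.

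KIF5C measured 129, 186 and 201 on the E arrays, against 14.1 to 17.9 in DMSO. The arms were separated by a gap many times their own spread (3.43 ± 0.16, adjusted p = 1.5e-13, quantile 2.99). KIF5A measured 39.5, 36.4 and 35.5 in E, where it was above background. Its rise was at least 2.87-fold (adjusted p = 2.4e-09), or at least 2.18-fold after quantile normalization. KIF5B measured 1091, 1227 and 1353 in E, within and above the DMSO range (0.14, 95% interval from -0.17 to 0.46, quantile 0.06). The neuronal heavy chains thus rose while the ubiquitous one was not called.

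Within single arrays a factor shared by all genes drops out, though a shift that depends on brightness does not. The log2 level of KIF5C minus that of KIF5B was -6.14 ± 0.35 (SD, n = 3) on DMSO arrays and -5.57 ± 0.34 under DT. It was -2.85 ± 0.20 under E and -2.69 ± 0.07 with all agents. These are differences between probe sets and their shift between arms is what can be read, not which transcript is more abundant. The shift was 3.29 between DMSO and E and 2.88 between DT and DTE. After quantile normalization the shifts were 2.93 and 2.95. The pair was chosen with the values known and is given as a description.

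**Figure D4:**
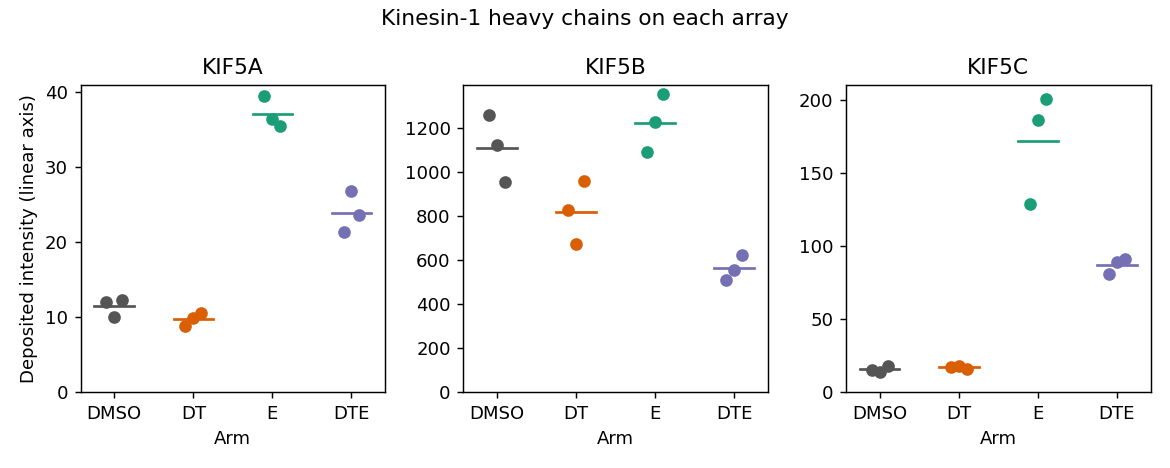
Deposited intensity (linear axis from 0) of the 3 conventional kinesin heavy chains on each array by arm, with a bar at the arm mean. KIF5C and KIF5A are high in the E and DTE arrays and low in DMSO and DT, while KIF5B is lowest in DTE in these values and in DT after quantile normalization.

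Other motors that lay close to background in DMSO rose as well, and so did KIF13B. KIF12, a kinesin known from kidney and bile duct epithelia, measured 16.4, 17.5 and 16.6 in DMSO and 37.0, 47.6 and 37.6 in E (1.27 ± 0.15, adjusted p = 5.5e-07, quantile 0.88). KIF21B, a neuronal motor that also regulates microtubule ends, measured 20.5, 14.1 and 16.1 in DMSO and 26.1, 33.0 and 35.5 in E (0.90 ± 0.15, adjusted p = 8.3e-05, quantile 0.55). Neither gene overlapped between the arms. KIF1A measured 25.4, 24.7 and 26.7 in E, all above its DMSO arrays (0.69 ± 0.13, adjusted p = 0.00033, quantile 0.38). KIF13B, a carrier of membrane proteins to the cell edge, measured 138, 138 and 109.7 in DMSO and 195, 214 and 242 in E (0.76 ± 0.14, adjusted p = 0.00027, quantile 0.65). Its arms did not overlap either.

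The ciliary motors gave smaller values. KIF3A measured 214, 229 and 298 in E, above its DMSO arrays (0.55 ± 0.17, adjusted p = 0.022, quantile 0.46). KIF3C (0.46, quantile 0.33), KIF17, a dendritic and ciliary motor (0.49, quantile 0.18), and KIF27, a motor of motile cilia (0.45, quantile 0.15), were called higher in deposited values, the last pair not after quantile normalization. The calls of KIF3A, KIF3C, KIF17 and KIF27 were each lost without E array 3. KIF7, a regulator of Hedgehog signalling at the cilium tip, measured 44.6, 40.0 and 37.5 in DMSO and 37.0, 35.6 and 46.1 in E (-0.05, quantile -0.30). KIF25 was called (0.46) with neither arm above background.

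Among the spindle motors 4 were called higher in E (28.6%) and 1 lower (7.14%), near the 20.8% and 4.81% of all genes. KIF11 measured 235, 221 and 269.5 in E (0.49 ± 0.16, adjusted p = 0.028, quantile 0.41), and KIF14 measured 278, 293 and 415 (0.52 ± 0.18, adjusted p = 0.038, quantile 0.46). The calls of both were lost without DMSO array 2, DMSO array 3 or E array 3. KIF18A measured 162, 160.2 and 210.3 (0.59 ± 0.15, adjusted p = 0.0047, quantile 0.46), and KIF20A measured 269, 263 and 253 (0.48 ± 0.13, adjusted p = 0.0064, quantile 0.41). All 4 genes called higher kept a positive difference when arrays were centred on their medians, between 0.19 and 0.30, but none was called on that scale. On it 0 spindle kinesins were higher and 4 lower, where 11.3% and 26.9% of all genes were. KIF18B measured 170.5, 191 and 189, below its DMSO arrays (-0.37 ± 0.13, adjusted p = 0.048, quantile -0.45), a call that was kept in 1 of 12 fits that left out an array.

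The other spindle motors were not called in E. KIF2C measured 119, 146 and 148 (0.30, quantile 0.17), KIF15 measured 109.7, 124 and 153 (-0.03), KIF22 measured 165, 160.0 and 168 (-0.03) and KIF23 measured 449.8, 480.1 and 576 (-0.07). Each of these overlapped its DMSO arrays. KIF24 likewise measured 97.1, 119 and 128 in E, overlapping its DMSO arrays (-0.10). The spindle class as a whole had a median of 0.24 (quantile 0.10).

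Of the 23 spindle partners 6 were called higher in E and 0 lower (0 also at an unadjusted p under 0.05), with a median of 0.23, and after quantile normalization 6 were higher and 2 lower. The 26.1% called higher is near the 20.8% of all genes. CDK1 was at 0.62 ± 0.15 (quantile 0.48), NUSAP1, a spindle microtubule protein, at 0.58 ± 0.14 (quantile 0.51) and BUB1, a checkpoint kinase, at 0.56 ± 0.14 (quantile 0.44). Of 13 measured neuronal microtubule genes 7 were called higher and 0 lower (0 also at an unadjusted p under 0.05), with a median of 0.70 (quantile 0.41). That is 53.8% called higher against 20.8% of all genes, and 61.5% against 15.3% after quantile normalization. MAP2, which binds microtubules in dendrites, was at 2.48 ± 0.15 (quantile 2.30), MAPT, the axonal protein tau, at 2.35 ± 0.16 (quantile 1.96), and DPYSL5, a protein of growing neurites, was at least 5.27-fold higher. Of the kinesin family genes outside the symbol rule KLC3, a light chain, was at 0.91 ± 0.16 (quantile 0.54), STARD9, a centrosomal kinesin, at 0.66 ± 0.13 (quantile 0.45) and KIFC3 at -0.62 ± 0.16 (quantile -0.80).

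With all 3 agents every spindle kinesin was lower than in DMSO in deposited values. In deposited values the cargo and ciliary classes lay near the median of all genes. In DTE against DMSO all 14 spindle kinesins were called lower, with a median of -1.53 (quantile -0.51), and KIF5A, KIF5C and KIF12 were the only 3 of the 39 called higher. Of the cargo kinesins 9 of 13 (69.2%) and of the ciliary kinesins 6 of 10 (60%) were called lower. These shares are near the 60.8% of all genes. Their medians were -0.59 and -0.55, near the -0.54 of all genes in deposited values. After quantile normalization the medians were 0.26 and 0.08, against -0.04 for all genes. Quantile normalization left 6 cargo kinesins higher (46.2%) and 0 lower, and 4 ciliary kinesins higher (40%) and 2 lower (20%). Of all genes 20% were higher and 23% lower on that scale. Over the 39 genes 29 were lower (74.4%), where 60.8% of all genes were, and the 3 higher compare with 4.26% of all genes. After quantile normalization 12 were lower and 12 higher, against 23% and 20% of all genes, and after centring 21 were lower and 7 higher, against 41.8% and 21.8%. Arrays of DTE lay below those of DMSO for 29 of the 39 genes and above for 3, where 63.6% and 5.5% of all genes did so. The 12 lower were KIF2C, KIF4A, KIF4B, KIF9, KIF14, KIF15, KIF18A, KIF18B, KIF20B, KIF22, KIF23 and KIF24, so 10 of the 14 spindle kinesins were lower on both scales.

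KIF18B measured 49.6, 45.3 and 46.2 in DTE, its lowest level of the 4 arms in deposited values, though not after quantile normalization, where DT was lower (-2.33 ± 0.13 against DMSO, adjusted p = 3.8e-12, quantile -1.29). KIF24 measured 27.7, 25.3 and 28.5 (-2.18 ± 0.16, quantile -1.32), KIF22 measured 39.3, 41.9 and 40.5 (-2.05 ± 0.13, quantile -1.05) and KIF15 measured 33.1, 33.9 and 37.0 (-1.92 ± 0.15, quantile -0.97). These 4 genes also had the largest falls after quantile normalization. KIF23 measured 121, 143 and 165 (-1.89 ± 0.15, quantile -0.83), KIF14 measured 55.6, 63.1 and 73.3 (-1.83 ± 0.18, quantile -0.76) and KIF2C measured 38.0, 36.2 and 36.4 (-1.60 ± 0.16, quantile -0.63). For each of them all DTE arrays lay below all DMSO arrays.

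For KIF18A, KIF11 and KIF20A the scale mattered more. KIF18A measured 40.9, 40.0 and 41.5 in DTE (-1.52 ± 0.15, quantile -0.54). KIF11 measured 61.6, 67.0 and 79.8 (-1.31 ± 0.16, quantile -0.25, not called on that scale). KIF20A measured 104, 117 and 116 and was called lower in deposited values (-0.74 ± 0.13) and higher after quantile normalization (0.35), so its direction against DMSO is not settled.

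KIF5C measured 80.7, 88.7 and 91.1 in DTE, 5.55-fold above DMSO (2.47 ± 0.16, adjusted p = 1.2e-11, quantile 3.22). KIF5A measured 21.4, 26.9 and 23.6, at least 1.85-fold above DMSO (adjusted p = 4.3e-07, at least 2.55-fold after quantile normalization). KIF12 measured 21.3, 26.3 and 20.01, with a small rise (0.41 ± 0.15, adjusted p = 0.018, quantile 0.87) that was not called without DTE array 2. KIF5B, at 511, 555 and 624, was called lower in deposited values and after centring, not after quantile normalization (-0.98 ± 0.15, centred -0.57, quantile -0.04). Of the others that passed the test in deposited values, KIF13B at 79.3, 95.3 and 96.5 changed direction (-0.50 ± 0.14, quantile 0.56), as did KIF13A, a carrier of recycling endosomes to melanosomes, at 74.6, 75.0 and 77.5 (-0.96 ± 0.16, quantile 0.10). KIF3A at 118, 131 and 174.5 was not called in deposited values (-0.26), was called lower there without DMSO array 3 or DTE array 3, and was called higher after quantile normalization (0.80).

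Among the spindle partners 22 of 23 were lower in DTE against DMSO, with a median of -1.49, and after quantile normalization 19 were lower and 2 higher (median -0.60). These are 95.7% and, after quantile normalization, 82.6% lower, against 60.8% and 23% of all genes, whose median was -0.54 in deposited values. Of the 13 neuronal microtubule genes 3 were higher (23.1%) and 5 lower (38.5%), against 4.26% and 60.8% of all genes, and after quantile normalization 8 were higher (61.5%) and 0 lower, against 20% and 23%.

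Adding entinostat to dabrafenib and trametinib raised KIF5C and KIF5A again. KIF5C was 5.09-fold higher in DTE than in DT (2.35 ± 0.16, adjusted p = 1.3e-10, quantile 3.07), and KIF5A at least 1.83-fold higher (adjusted p = 1.2e-07, at least 2.55-fold after quantile normalization). They were the 2 of 39 called higher, against 4.09% of all genes, and 15 were called lower (38.5%), against 54% of all genes. After quantile normalization 18 were higher (46.2%) and 5 lower, against 16.2% and 18.2% of all genes, and after median centring 8 were higher and 9 lower, against 15.6% and 33.7%. Arrays of DTE lay above those of DT for 4 of the 39 genes and below for 17, where 5.51% and 59.9% of all genes did so. The median difference over the 39 was -0.23 in deposited values, 0.09 after centring and 0.23 after quantile normalization, while the median over all genes was -0.41 in deposited values.

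No spindle kinesin was called higher in deposited values in DTE against DT (1 was at an unadjusted p under 0.05), 5 were lower, and after quantile normalization 9 were higher and 2 lower. KIF11 was at 0.34 ± 0.16 (adjusted p = 0.078), with a 95% interval from 0.003 to 0.68, was called after centring (0.66) and quantile normalization (1.04), and was also called in deposited values without DT array 1 or DT array 3. KIF18A was at 0.27 ± 0.15 (adjusted p = 0.14, centred 0.58, quantile 0.90) and KIF20A at 0.08 ± 0.13 (95% interval from -0.18 to 0.34, centred 0.40, quantile 0.80). These 3 were called higher on both other scales and had a positive difference on all 3. KIF14 (-0.07, quantile 0.62), KIF15 (-0.06, quantile 0.54), KIF2C (-0.17, quantile 0.45), KIF4A (quantile 0.50), KIF20B (quantile 0.59) and KIF2A (-0.39, quantile 0.33) were called higher only after quantile normalization, and KIF2A was called lower in deposited values. That call of KIF2A (adjusted p = 0.046) was lost with a replicate block (adjusted p = 0.053) and without DMSO array 2, DT array 1, DT array 3, E array 2, DTE array 1 or DTE array 2.

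KIF23 fell 2.36-fold from DT to DTE and was lower on every scale (-1.24 ± 0.15, adjusted p = 6.6e-07, centred -0.92, quantile -0.52). KIF2B was also lower on both scales (-0.66, quantile -0.37). KIF22 was lower in deposited values and after centring, and not called after quantile normalization (-0.74 ± 0.13, adjusted p = 3.5e-05, centred -0.42, quantile -0.11). KIF18B was called lower in deposited values (-0.44 ± 0.13), with the sign turned after quantile normalization (0.21). KIF24 was called lower in deposited values (-0.60 ± 0.16, quantile -0.10). KIF11 had the highest and KIF23 the lowest difference of the 14 spindle kinesins in deposited values and after quantile normalization.

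**Figure D5:**
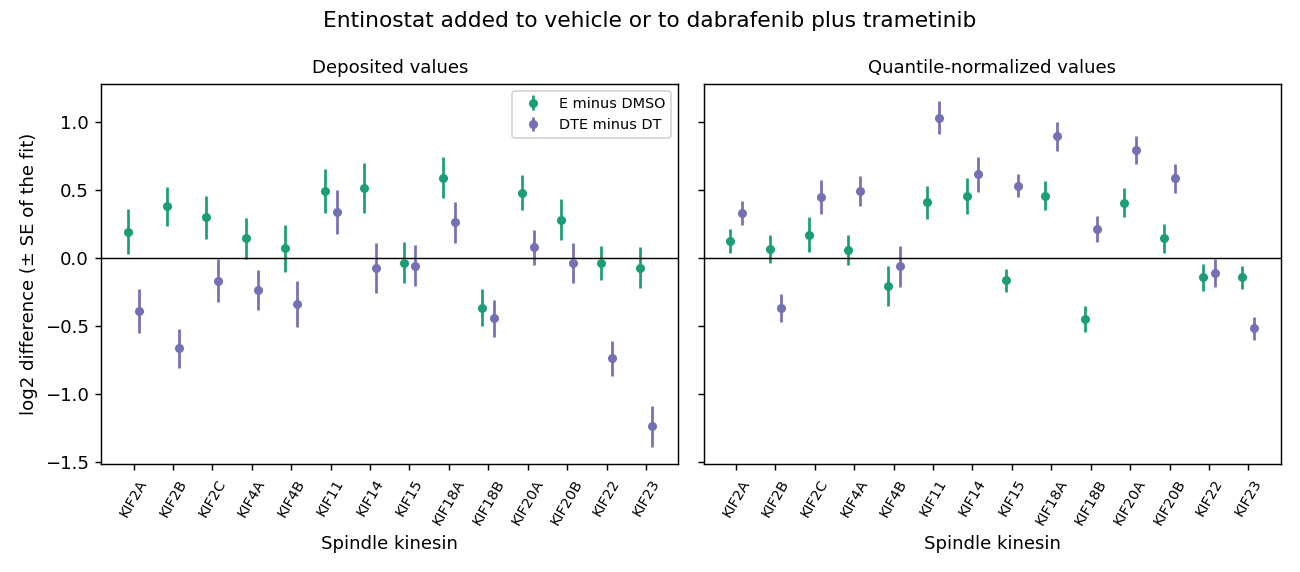
Log2 difference (± SE of the fit) of each spindle kinesin when entinostat was added to vehicle (E against DMSO) or to dabrafenib plus trametinib (DTE against DT), in deposited values and after quantile normalization. With DT as the base KIF11 stands highest and KIF23 lowest on both scales, while the height of the zero line relative to the points depends on the scale.

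Among the cargo and ciliary kinesins KIF13A fell from 175, 148 and 179 in DT to the DTE values above (-1.14 ± 0.16, adjusted p = 3e-06, quantile -0.41), lower on both scales. KIF7 measured 44.9, 33.4 and 41.7 in DT and 22.8, 23.1 and 24.5 in DTE (-0.76 ± 0.15, quantile -0.33), and KIF9 was lower on both scales too (-0.62, quantile -0.36). KIF1C, a motor of Golgi and mRNA transport, measured 134, 137 and 152 in DT and 68.3, 81.1 and 77.9 in DTE, without overlap, and was called lower in deposited values and after centring, not after quantile normalization (-0.90 ± 0.15, adjusted p = 2.3e-05, centred -0.58, quantile -0.18). KIF5B was called lower (-0.53 ± 0.15) with a turned sign after quantile normalization (0.12). KIF1A (0.04, quantile 0.33), KIF21B (0.26, quantile 0.59) and KIF12 (0.32, quantile 0.74), which all rose in E, were not called in deposited values and were called higher after centring (0.36, 0.58 and 0.64) and quantile normalization. KIF12 was also called in deposited values without DT array 2 or DTE array 3.

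The list of spindle partners had 1 gene higher and 11 lower in DTE against DT, and 11 higher and 1 lower after quantile normalization, so its direction depends on the scale. The 47.8% called lower in deposited values is near the 54% of all genes. INCENP, the scaffold of the passenger complex, was at -0.93 (quantile -0.37), NDC80, a kinetochore protein, at -0.80 (quantile -0.20) and CDCA8, another passenger subunit, at -0.80 (quantile -0.16). The neuronal microtubule genes had 3 higher (23.1%, against 4.09% of all genes) and 1 lower (quantile 8 and 0), with MAPT at 1.40 ± 0.16 (quantile 2.07) and MAP2 at 0.98 ± 0.15 (quantile 1.66), and DPYSL5 at least 1.70-fold higher.

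Against entinostat alone, DTE had every kinesin lower in deposited values. All 39 were called lower, where 78.5% of all genes were, and 0 higher (0 also at an unadjusted p under 0.05), where 0.247% were, with a median of -1.01 against -0.82 for all genes. After quantile normalization 13 were lower and 3 higher, against 10.8% and 9.34% of all genes, and after centring 19 and 1, against 37% and 23.2%. The DTE arrays lay below the E arrays for all 39 genes, where 79% of all genes did so. Of the 13, 10 were spindle kinesins, with KIF14 (-2.35 ± 0.18, quantile -1.22), KIF18A (-2.11, quantile -1.001), KIF22 (-2.02, quantile -0.91) and KIF18B (-1.97, quantile -0.84) the furthest in deposited values among them. KIF24 was at -2.07 (quantile -1.10). No cargo kinesin was lower after quantile normalization. KIF20A, at -1.22 in deposited values, was at -0.06. KIF5C was at -0.96 ± 0.16 and KIF5A at -0.64 ± 0.14 in deposited values, with the opposite sign and no call after quantile normalization (0.22 and 0.23).

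Whether entinostat acted differently on the 2 backgrounds was tested by the interaction, the difference between DTE and DT minus that between E and DMSO. In deposited values 24 of the 39 genes were called lower (61.5%), where 62.5% of all genes were, and 0 higher (0 also at an unadjusted p under 0.05), where 0.206% were. The share of kinesins called lower is thus near the background. After quantile normalization 3 were higher and 1 lower, against 1.91% and 2.19% of all genes, and after centring 2 were higher and 3 lower, against 8.02% and 7.56%. KIF13B was lower on both scales (-1.35 ± 0.20, adjusted p = 4.4e-05, centred -0.74, quantile -0.51 with adjusted p = 0.011). KIF15 (-0.02, centred 0.59, quantile 0.70 with adjusted p = 0.0055) and KIF18B (-0.08, centred 0.53, quantile 0.67 with adjusted p = 0.015) were called higher after centring and quantile normalization and not in deposited values. KIF21A (quantile 0.61) was called higher after quantile normalization only. For KIF5C the interaction was -1.09 ± 0.22 in deposited values and 0.08 after quantile normalization, so a smaller rise in the presence of dabrafenib and trametinib depends on the scale.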

How the data were processed

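RNA of SKMEL2 cells was hybridised to Affymetrix arrays. Per the labels' protocols, ERCC spike-in RNA was added before extraction. The authors deposited linear intensities per probe set. The submitters' processing notes name RMA and Transcriptome Analysis Console. The order of these tools, their versions, the genome build and the step that left arrays on different levels (medians 16.8 to 31.9) are not given in the sources used here. Quantile normalization moves bright genes more than dim ones, so each difference is given on more than 1 scale.

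A table of gene identifiers gave 14750 of 29398 probe sets (50.2%) a single gene name, left 14648 without one and gave none several symbols. The probe set with the highest mean stood for a gene (156 genes had several, none of them a KIF gene). The deposited intensities were log2-transformed without a pseudocount or a filter. All 12 arrays were fitted with 1 mean per arm in limma 3.58.1 (R 4.3.3, lmFit, eBayes). Benjamini-Hochberg adjustment ran over 14582 genes per comparison, with a threshold of 0.05. Alternatives were quantile normalization, median centring, a mean-variance trend, a replicate block, only the arms compared, a filter on dim genes, the mean of probe sets and leaving out each array. Quantile normalization and centring of single genes, classes and lists were added after the levels were known.

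Background was set on each array at the 95th percentile of its low genes (the dimmest 25% by mean), with values in view when this rule was chosen. Where the dimmer arm did not exceed it, "at least N-fold" takes that level. Replicate numbers did not pair the arrays. The members and lists were chosen with earlier results of these data known. Values on every array are printed for the 4 largest called rises and falls of each comparison and for 9 members fixed by name. Genes of other lists are the 3 with the smallest adjusted p. Promoters are RefSeq's. The number of arrays limits the precision.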

Additional observations from a re-analysis of the deposited data

Results flagged for a closer look

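The effect of entinostat differed between the arms with and without dabrafenib and trametinib for 24 kinesin genes by limma's interaction test on deposited values, all of them lower, where 62.5% of all genes were lower. Among the cargo kinesins the interaction was -0.65 for KIF1A, -0.92 for KIF1B, -0.73 for KIF1C, -0.67 for KIF5B, -1.09 for KIF5C, -1.11 for KIF13A, -1.35 for KIF13B, -0.82 for KIF16B, -0.64 for KIF21B and -0.82 for KIF26A. Among the ciliary kinesins it was -0.71 for KIF3A, -1.01 for KIF3B, -0.57 for KIF3C, -0.71 for KIF7, -0.81 for KIF17, -0.84 for KIF19 and -0.57 for KIF27. Among the spindle kinesins it was -0.58 for KIF2A, -1.05 for KIF2B, -0.59 for KIF14, -0.70 for KIF22 and -1.17 for KIF23, and among the others -0.94 for KIF12 and -0.50 for KIF25.

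After quantile normalization KIF13B (-0.51) alone of the 24 was called, and 11 of the 24 had a difference above 0. The largest of those were KIF3C (0.23), KIF2A (0.20) and KIF14 (0.16). The lowest after KIF13B were KIF2B (-0.44), KIF23 (-0.38) and KIF13A (-0.27).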

How the results depend on the processing

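After quantile normalization the kinesin genes called higher and lower were 5 and 15 in DT against DMSO, 13 and 4 in E against DMSO, 12 and 12 in DTE against DMSO, 18 and 5 in DTE against DT, 3 and 13 in DTE against E, and 3 and 1 for the interaction. After median centring they were 1 and 17, 6 and 9, 7 and 21, 8 and 9, 1 and 19, and 2 and 3. The 1 gene lower in E against DMSO, KIF18B, was not called with a mean-variance trend, a replicate block, a filter on dim genes or only the arms compared (0 each; 1 at an unadjusted p under 0.05 in the fit without them). Leaving out 1 array gave 0 higher and 15 to 18 lower in DT against DMSO, 8 to 20 higher and 0 to 1 lower in E against DMSO, 2 to 3 and 28 to 30 in DTE against DMSO, 2 to 3 and 12 to 17 in DTE against DT, 0 and 38 to 39 in DTE against E, and 0 and 18 to 28 for the interaction. Signs turned after quantile normalization for medians over the 39 genes, to 0.0081 in DTE against DMSO, 0.23 in DTE against DT and 0.085 for the interaction. In DTE against DMSO they turned for KIF3A (0.80), KIF13A (0.10), KIF13B (0.56) and KIF20A (0.35). In DTE against DT they turned for KIF1B (0.12), KIF2A (0.33), KIF2C (0.45), KIF3A (0.56), KIF3B (0.17), KIF3C (0.56), KIF4A (0.50), KIF5B (0.12), KIF13B (0.14), KIF14 (0.62), KIF15 (0.54), KIF16B (0.30), KIF18B (0.21), KIF20B (0.59) and KIF21A (0.60). In DTE against E they turned for KIF1C (0.14), KIF3A (0.34), KIF5A (0.23), KIF5C (0.22), KIF7 (0.13) and KIF13A (0.25). For the interaction they turned for KIF1C (0.10), KIF3A (0.10), KIF5B (0.062), KIF5C (0.078), KIF14 (0.16), KIF15 (0.70), KIF18B (0.67), KIF21B (0.048) and KIF22 (0.032). After centring they turned for KIF1A in DTE against DMSO (0.35), KIF5A in DTE against E (0.063), KIF14 (0.019), KIF15 (0.59) and KIF18B (0.53) for the interaction, and the medians in DTE against DT (0.086) and for the interaction (0.019). The cause was not tested. Arrays with the same replicate number did not deviate together (correlations from -0.22 to 0.13, 2 of 18 pairs over 0.1, 3 of 12 arrays closest to their own number). The replicate block gave 0 and 17, 15 and 0, 3 and 29, 2 and 14, 0 and 39, and 0 and 24 genes higher and lower, and of 180 differences of single genes 2 lost their call. The mean of probe sets could change no value of a kinesin gene, since each has 1 probe set. Genes near background, such as KIF25, KIF5A and KIF26B, have the least certain values.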

Other observations

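Genes listed as transport partners, such as adaptors that couple motors to cargo, showed a smaller and mixed change. Of 15 measured genes of a list of transport partners 6 were called higher and 1 lower in E against DMSO, against 20.8% and 4.81% of all genes, and after quantile normalization 4 and 4. FEZ1, an adaptor of the conventional kinesin in axons, was at 1.52 ± 0.14 (adjusted p = 2.2e-08 in limma, quantile 1.13). SYBU, which links mitochondria and vesicles to the same motor, was at least 1.64-fold higher, and JPT1 was at 0.91 ± 0.13 (quantile 0.85). In DT against DMSO 3 were lower and 0 higher in limma (1 higher at an unadjusted p under 0.05), and after quantile normalization 1 was lower and 3 were higher. The 20% lower is near the 23.1% of all genes. BICD2, a dynein adaptor, was at -0.86 ± 0.15 (quantile -0.50), JPT1 at -0.64 ± 0.13 (quantile -0.26) and RHOT2, a mitochondrial GTPase, at -0.43 ± 0.15 (quantile -0.10). In DTE against DT 2 were higher and 10 lower (66.7%, against 54% of all genes), and after quantile normalization 3 and 2.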
